A study of Mus musculus with 10 samples.

Results

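The late cornified envelope genes examined here were Lor, Flg, Flg2, Hrnr, Ivl, Lce1m, Rptn and Cdsn, 8 of the 32245 gene symbols counted in the E15.5 and E17.5 libraries and of the 27933 counted in the E16.5 libraries. They were taken by symbol, and they had been picked for how their levels and their shares of positive cells moved between stages and groups in suprabasal cells and in all cells of these same libraries. Their values in those cells are therefore given as a description. Fits in those cells are quoted for the size of a change, and nothing is read from whether a member passed the threshold there. Single-cell RNA sequencing was performed on dissociated total back skin of mouse embryos of a mixed C57Bl/6J and CD-1 background. The E15.5 and E16.5 stages each comprised 2 control and 2 MOF cKO embryos (MOFfl/fl/K14Cre). The E17.5 stage comprised 1 control and 1 QPC cKO embryo (QPCfl/fl/K14Cre). MOF (gene symbol Kat8) acetylates lysine 16 of histone H4, and QPC (Uqcrq) is a subunit of respiratory complex III. In both mutants the floxed alleles were deleted by Krt14-Cre, which is active in epithelial cells, so dermal cells of the same skin kept the gene. Controls were wild-type or heterozygous littermates. The study describes MOF cKO 6 at E15.5 as a mosaic in which some epithelial cells resembled control cells. Per the labels each stage was made with another version of the 10x 3′ chemistry, and E16.5 also with another gene list, so stage, chemistry and gene list cannot be told apart.

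Keratinocytes leave the basal layer, switch from Krt5 and Krt14 to Krt1 and Krt10, and in the granular layer build the cornified envelope, a protein shell that is crosslinked beneath the plasma membrane and completes the skin barrier shortly before birth. Involucrin (Ivl) is a scaffold laid down early in that process, and loricrin (Lor) is its most abundant protein in mature epidermis. Filaggrin (Flg), filaggrin 2 (Flg2), hornerin (Hrnr) and repetin (Rptn) are large S100 fused-type proteins of the keratohyalin granules, Lce1m belongs to the late cornified envelope family, and corneodesmosin (Cdsn) is an adhesion protein of corneodesmosomes.

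Cdsn lies on chromosome 17, and the other 7 genes lie within 1.32 Mb of chromosome 3 (92080271 to 93399442 in GRCm38), the epidermal differentiation complex, a span that holds 54 protein-coding genes. All 8 are protein-coding in GENCODE M21, where Lor, Ivl and Cdsn have 2 exons each. RefSeq promoter windows in GRCm38.p6 were matched for all 8 members. The 150 bases before the start are shown for the 5 members with the most UMIs, because the results below turn on these genes and they differ in the motifs they hold. Their positions are chr3:92083143-92083292 on the minus strand for Lor, chr3:93319599-93319748 on the plus strand for Hrnr, chr3:92573736-92573885 on the minus strand for Ivl, chr3:93019062-93019211 on the minus strand for Lce1m and chr17:35551978-35552127 on the plus strand for Cdsn. Each line runs 5′ to 3′ on the gene's strand towards the start, and capitals mark the AP-1 motif TGANTCA and the TATA motif TATAAA.
Lor: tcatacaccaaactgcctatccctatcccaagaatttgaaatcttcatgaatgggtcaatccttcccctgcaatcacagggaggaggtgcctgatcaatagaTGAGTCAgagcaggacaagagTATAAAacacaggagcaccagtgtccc
Hrnr: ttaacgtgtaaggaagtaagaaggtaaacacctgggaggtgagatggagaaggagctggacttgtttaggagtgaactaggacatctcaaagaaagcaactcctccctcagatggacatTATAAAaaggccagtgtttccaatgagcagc
Ivl: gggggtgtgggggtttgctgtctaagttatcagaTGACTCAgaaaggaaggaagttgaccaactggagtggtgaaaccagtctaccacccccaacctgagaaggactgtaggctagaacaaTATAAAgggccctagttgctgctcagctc
Lce1m: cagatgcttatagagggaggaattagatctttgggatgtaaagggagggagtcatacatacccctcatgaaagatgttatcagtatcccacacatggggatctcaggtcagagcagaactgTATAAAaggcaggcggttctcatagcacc
Cdsn: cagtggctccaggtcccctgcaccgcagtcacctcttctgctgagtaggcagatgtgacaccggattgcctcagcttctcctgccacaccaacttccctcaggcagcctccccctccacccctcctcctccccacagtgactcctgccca
The AP-1 letters, searched on both strands in windows from 250 bases before to 50 after the start, occurred in 5 members (Lor, Flg, Flg2, Ivl and Rptn) and in 7.81% of 32851 promoters of the same length. Among the sequences shown, they began 48 bases before the start of Lor and 116 bases before that of Ivl. TATAAA occurred in 6 members and in 13.6% of all promoters on either strand. It began 27 to 31 bases before the start of Lor, Hrnr, Ivl, Lce1m and Rptn, and 53 bases before that of Flg. The palindrome AACCGGTT, the letters preferred by grainyhead-like factors, was in none of the members' windows and in 0.146% of all promoters. These are matches of letters and not measured binding sites.

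Libraries held 13609345 to 203392303 UMIs, with the 4 E16.5 libraries the shallowest, and 716 to 10653 cells per library passed the limits on genes and mitochondrial UMIs. Levels are given as UMIs per 1000000 UMIs of the cells summed (CPM). Cells with at least 20 UMIs of Krt1 and Krt10 together were taken as suprabasal, cells with at least 20 UMIs of Krt5 and Krt14 and fewer of Krt1 and Krt10 as basal, and cells with at least 20 collagen UMIs and fewer keratin UMIs as fibroblasts. In the E15.5 libraries the suprabasal gate held 147 and 361 control cells and 188 and 213 MOF cKO cells. In those of E16.5 it held 31 and 66 control cells and 9 and 13 MOF cKO cells. All 7 suprabasal markers (Krt1, Krt10, Krtdap, Sbsn, Dmkn, Dsg1a and Dsc1) were detected in that gate in every library. Krt1 and Krt10 define the gate, and the 6 basal and 5 dermal fibroblast markers were also detected in it in every library. Detection alone is therefore no check of the gate. At E16.5 the fibroblast markers summed to 1492 and 1267 CPM there in controls and 727 and 973 CPM in MOF cKO. The 3 erythroid markers summed to 1986 and 6955 CPM against 5928 and 2474 CPM. Kat8 in basal cells was 13.1 and 13.8 CPM in controls and 13.8 and 10.4 CPM in MOF cKO at E15.5, and 20.5 and 15.2 CPM against 7.79 and 3.93 CPM at E16.5, the last pair from 3 and 2 UMIs. In fibroblasts of the E16.5 libraries, which the Cre does not target, Kat8 was also lower, at 2.62 and 5.33 CPM in MOF cKO against 10.4 and 8.36 CPM in controls, so the E16.5 levels are no clean check of the deletion. Uqcrq in basal cells was 120.1 CPM in the E17.5 control and 30.4 CPM in QPC cKO. Where the 3′ tags lie relative to the deleted exons was not known, so the similar Kat8 levels at E15.5 check nothing. No more than 0.354% of the cell barcodes of the smaller library were shared between any pair of libraries.

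Lor, Hrnr, Lce1m and Cdsn were far lower in E16.5 MOF cKO suprabasal cells than in controls, whereas Ivl was not. Lor reached 39484 and 24479 CPM in the 2 controls, so that loricrin transcripts alone made up several percent of all UMIs of the gate. In MOF cKO the values were 145 and 51.4 CPM. Both MOF cKO libraries lay below both controls, and the group mean fell from 31982 ± 10610.1 to 98.2 ± 66.2 CPM (SD, n = 2 each), a 326-fold difference. Of the suprabasal cells, 96.8% and 86.4% of controls and 44.4% and 61.5% of MOF cKO had a Lor UMI. Fibroblasts, which should lack the transcript, had one in 91.3% and 64.9% of control and 20.8% and 11.1% of MOF cKO cells, so the shares include a background, whose source was not tested. Median depth was 14735, 11542, 15580 and 15946 UMIs in the 4 suprabasal gates, in the same order, and 10916, 9450.5, 12525 and 11329 UMIs in the fibroblasts. With each cell thinned to 5000 UMIs, the mean shares were 79% and 18.8%. Fibroblasts had 264 and 118 CPM of Lor in the control libraries and 23.3 and 9.63 CPM in the MOF cKO libraries. The MOF cKO 1 value rested on 1 of its 9 suprabasal cells, which held 25 of the 28 Lor UMIs.

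Hrnr, the hornerin gene, followed Lor. Controls had 1807 and 1019 CPM, and MOF cKO had 0 and 10.3 CPM, the latter from 3 UMIs. The group means were 1413 ± 557 and 5.15 ± 7.28 CPM (SD, n = 2 each), a 274-fold difference with no overlap. Over the pooled UMIs of each group the ratio was 212-fold, with an exact counting interval from 72.6-fold to 1031-fold that leaves out the spread between cells and between embryos. Cdsn, the corneodesmosin gene and the only member outside the complex on chromosome 3, had 255 and 206 CPM in controls and 15.6 and 10.3 CPM in MOF cKO. Its group means of 230.5 ± 34.6 and 12.9 ± 3.75 CPM (SD, n = 2 each) differed 17.8-fold, the smallest difference of these 4 genes. The share of suprabasal cells with a Cdsn UMI averaged 18.8% in both groups before thinning, and 15.8% and 4.17% after it.

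Lce1m varied most between the controls, with 8706 CPM in control 1 and 524 CPM in control 2. No Lce1m UMI was found in the suprabasal cells of either MOF cKO library, which places the group at least 745-fold lower than the control mean of 4615 ± 5786 CPM (SD, n = 2), taking 3 UMIs over the group as the floor. Against control 2 alone the bound is 84.7-fold. The 9 and 13 cells behind these zeros allow shares of positive cells of up to 29.9% and 22.8% (Wilson 95% interval, counting error only), against 58.1% and 10.6% in controls. Fibroblasts of the controls had an Lce1m UMI in 22.6% and 3.51% of cells, and with each cell thinned to 5000 UMIs the control shares were 23.1% and 8.93% in suprabasal cells and 11.4% and 1.47% in fibroblasts. Flg had 16 and 4 UMIs in control suprabasal cells and 1 and 0 in MOF cKO. Flg2 had 2 and 1 UMIs in controls and none in MOF cKO, and Rptn had none in the gate of any library. The data therefore do not resolve Flg, Flg2 and Rptn at E16.5.

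**Figure D1:**
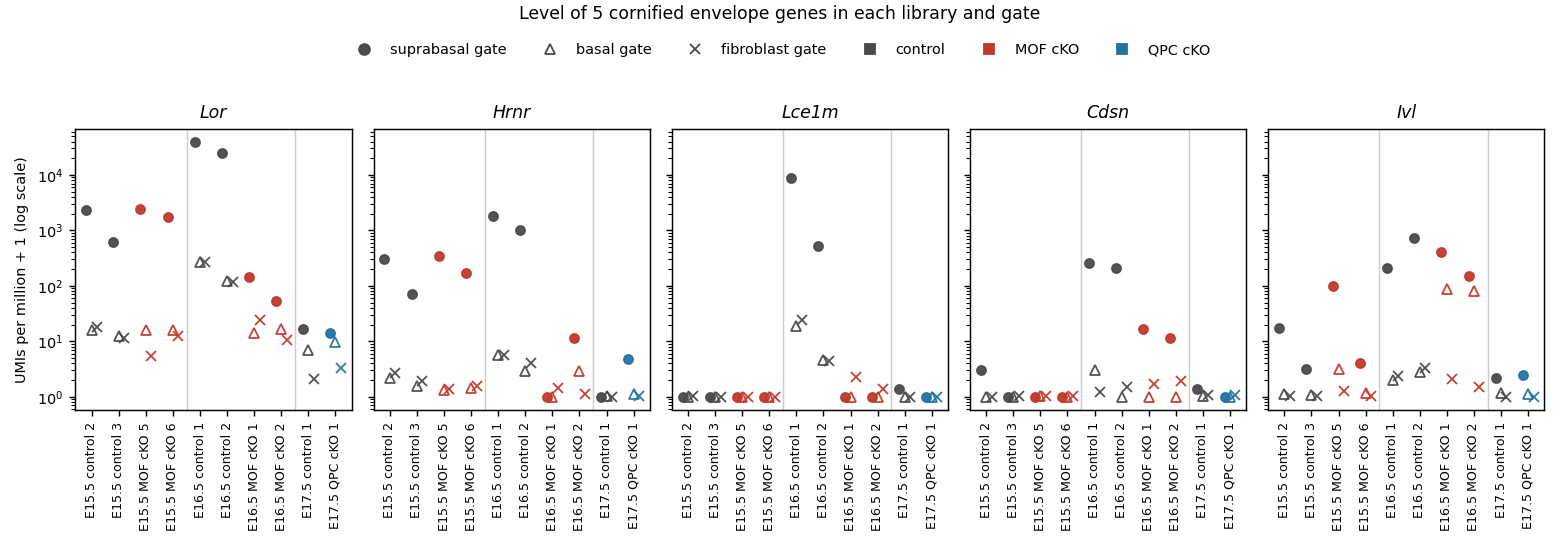
Level of Lor, Hrnr, Lce1m, Cdsn and Ivl in each of the 10 libraries, as CPM plus 1 on a log axis, with filled circles for suprabasal cells, triangles for basal cells and crosses for fibroblasts; grey is control, red MOF cKO and blue QPC cKO. At E16.5 the red circles of Lor lie at 145 and 51.4 CPM under grey circles at 39484 and 24479, whereas those of Ivl lie at 399.7 and 147 CPM beside grey circles at 207 and 734, and its red triangles stand at 88.2 and 80.7 CPM.

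In the edgeR fit of summed suprabasal UMIs at E16.5, 5 members passed the filter on low counts and 4 of them were called lower at an adjusted p under 0.05, beside 0.68% of the 4266 genes tested that were called lower and 3.35% called higher. Because the members were chosen on this contrast, nothing is read from that count. Log2 fold changes were -7.81 ± 0.93 (SE) for Lor, -7.36 ± 0.80 for Hrnr, -3.69 ± 0.50 for Cdsn and -0.28 ± 0.75 for Ivl. Without MOF cKO 2, the only MOF cKO library with Hrnr UMIs in the gate, Hrnr moved to -12.37, a value that depends on how a group of zeros is fitted. Lor moved to -8.84 without MOF cKO 1 and to -7.09 without MOF cKO 2. Of the 5 members, Hrnr, Lce1m and Cdsn passed the filter through the controls only. Both MOF cKO libraries lay below both controls in 49.6% of the genes tested, so an absence of overlap alone was common in this contrast. With library sizes alone in place of TMM factors the median of all genes moved from -0.06 to -0.58 and calls split into 126 higher and 179 lower instead of 143 and 29. The 4 lower members kept their direction under both scalings. Leaving out suprabasal cells with at least 20 collagen UMIs moved Lor to -6.49, Hrnr to -5.23 and Cdsn to -1.81.

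Other features of the gate moved with these values. The E16.5 MOF cKO cells had higher medians of summed Krt5 and Krt14 UMIs (328 and 385, against 77 and 8.5 in controls) and lower medians of mitochondrial UMIs (0.0811% and 0.0693%, against 3.44% and 2.02%). The summed level of the 7 suprabasal markers was 27498 and 28099.7 CPM in MOF cKO and 40941 and 51899.8 CPM in controls. The 6 periderm markers summed to 23828 and 14975 CPM in MOF cKO and to 1469 and 1133 CPM in controls. Only Krt6a and Krt17 of that list had UMIs in MOF cKO, and Krt4, Krt8, Krt18 and Krt19 were at 0 there and in control 1. The 6 basal markers summed to 32996 and 25335 CPM in MOF cKO and to 13878 and 14101 CPM in controls, with none at 0. The 6 hair follicle markers summed to 7325 and 4848 CPM against 1519.7 and 1168 CPM, nearly all of it from Krt17, which the periderm list also holds (7319.7 and 4776 CPM in MOF cKO, 1463 and 1122 CPM in controls), with Shh at 0 in both MOF cKO libraries and Lhx2, Pthlh and Lef1 also at 0 in MOF cKO 1. The 5 immune markers summed to 62.3 and 75.4 CPM against 12.1 and 19.4 CPM, with Ptprc at 0 in both MOF cKO libraries. The part of these features in the members' levels was not tested.

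The member transcripts sat in few cells. Cells with at least 100 summed member UMIs numbered 6 of 31 and 13 of 66 in the E16.5 control suprabasal gates, and they held 99.3% and 98.9% of the gate's member UMIs. Lor alone made up a median of 18.2% and 13.5% of all UMIs in these cells. They carried almost no Krt5 and Krt14 (medians of 5.5 and 2 UMIs) and few mitochondrial UMIs (medians of 0.0919% and 0.137%, against 4.07% and 2.53% in the other suprabasal cells). Among all kept cells, 12 of 1140 and 19 of 2447 control cells were of this kind, or 1.05% and 0.776%, and some of them had too few Krt1 and Krt10 UMIs for the gate.

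MOF cKO had none at E16.5, with 0 of 716 and 0 of 1363 kept cells, with upper Wilson 95% limits of 0.534% and 0.281%. The control intervals ran from 0.603% to 1.83% and from 0.498% to 1.21%, so that of MOF cKO 1 overlapped the second one. Within the suprabasal gate, 0 of 9 and 0 of 13 cells have upper limits of 29.9% and 22.8%. At this number of cells these lie above the control shares of 19.4% and 19.7%. All these intervals cover counting error only and leave out the spread between embryos, and the cells were picked by the members' own UMIs. Nothing is read from whether the intervals overlap. The kept cells also differed in makeup, with 13.7% and 18.4% basal cells in controls and 2.93% and 1.91% in MOF cKO. Outside the cells with at least 100 member UMIs, Lor in suprabasal cells was 397 and 297 CPM in controls and 145 and 51.4 CPM in MOF cKO. Fibroblasts had 264 and 118 CPM in controls and 23.3 and 9.63 CPM in MOF cKO. These suprabasal values therefore include a background that differed between the groups, and nothing is read from their difference. Every control cell with at least 100 member UMIs had Lor and Hrnr. Cdsn was found in 12 of 12 and 16 of 19 of them, Lce1m in 10 of 12 and 8 of 19, Ivl in 5 of 12 and 14 of 19, and Flg in 3 of 12 and 1 of 19. The barcodes that the limit of over 1000 genes left out held 1 barcode with 317 Lor UMIs in MOF cKO 1 and 1 with 734 in MOF cKO 2. In the controls they held 3 and 1 barcodes with at least 100 member UMIs, with up to 1472 and 761 Lor UMIs in a barcode.

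**Figure D2:**
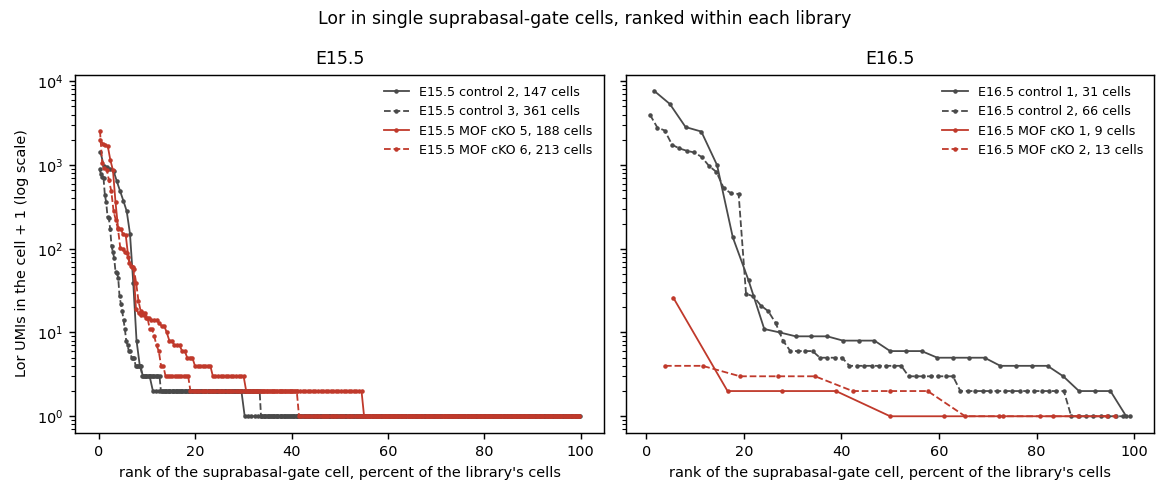
Lor UMIs plus 1 (log axis) in each suprabasal cell, ranked within its library and placed by rank as a percent of the library's cells; grey is control and red MOF cKO. The 4 curves of E15.5 start at 882 to 2569 UMIs, and at E16.5 the curves of MOF cKO start at 25 and 3 UMIs where those of controls start at 7676 and 3984.

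Over all kept cells, where fewer cells of a type and less RNA per cell cannot be told apart, the same 4 members were lower in E16.5 MOF cKO. Lor was 2729 and 1059.8 CPM in controls and 23.6 and 10.2 CPM in MOF cKO, a 112-fold difference of means. Hrnr was 83.1 and 37.1 against 0.307 and 0.363 CPM, Lce1m 674 and 47.9 against 1.23 and 0.424 CPM, and Cdsn 11.2 and 6.92 against 1.13 and 1.03 CPM. Ivl was 9.2 and 24.6 CPM in controls and 12.2 and 5.63 CPM in MOF cKO, with overlap. Of the 5 members tested, 4 were called lower by edgeR, beside 6% of 14060 genes called lower and 5.88% called higher. These members had been chosen on this contrast too.

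At E15.5 the members' levels in suprabasal cells and in all kept cells did not separate the groups, although some shares of positive cells did. Lor in suprabasal cells was 2342 and 628 CPM in controls and 2437 and 1739.9 CPM in MOF cKO, so the control values spanned a wider range than the difference of the means, 1485 ± 1212 and 2088 ± 493 CPM (SD, n = 2 each). Barcodes left out by the upper limit on genes held 0.584% of all Lor UMIs in control 2 and 42% in control 3. They held 17.8% in MOF cKO 5 and 15.6% in MOF cKO 6. Hrnr was 307 and 69.6 CPM in controls and 351 and 168 CPM in MOF cKO, again with overlap. A Lor UMI was found in 29.9% and 33.5% of control and 54.8% and 41.3% of MOF cKO suprabasal cells. After thinning to 5000 UMIs these shares were 16.7% and 11.7% against 30.9% and 17.3%. Those of Hrnr were 6.94% and 5.16% against 12% and 8.42%, and overlapped before thinning. Over all kept cells Lor shares went the other way, at 15.9% and 15.3% against 7.65% and 13.9%. So did those of Hrnr, at 1.89% and 1.75% against 0.806% and 0.986%. Cdsn had 6 UMIs in control 2 and none in the other 3 libraries, Flg and Lce1m had none, and Flg2 had 2 UMIs in control 3. Cells with at least 100 member UMIs numbered 10 and 10 in the control and 11 and 12 in the MOF cKO suprabasal gates, and they held 88.9% to 98.7% of the gate's member UMIs. Of the 3 members tested 0 were called, beside 0% of 10819 genes in edgeR. An unadjusted p under 0.05 was reached by 836 genes, and DESeq2 called 49. Without MOF cKO 6, the library described as mosaic, edgeR called 1749 genes. The log2 fold change of Lor was 0.64 ± 0.60 (SE), and it ranged from 0.00 without control 3 to 1.84 without control 2. In all kept cells Lor was 84.3 and 45.5 CPM in controls and 82.4 and 65.5 CPM in MOF cKO, and 0 of 3 members tested were called beside 4.54% of 17977 genes.

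The difference of the MOF cKO effect between the stages was described by an interaction term over the 8 E15.5 and E16.5 libraries. For Lor it was -8.54 ± 1.07 (SE, log2). Lor was in part chosen for this change between stages, so the value is a description, and the chemistry and the gene list changed with the stage. The fit called 0.0311% of 9644 genes, and nothing is read from the place of Lor among them.

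Ivl did not follow Lor, Hrnr, Lce1m and Cdsn. In E16.5 suprabasal cells it was 207 and 734 CPM in controls and 399.7 and 147 CPM in MOF cKO, and leaving out a library moved its log2 fold change between -1.31 and 0.99. A larger share of the few MOF cKO cells carried it, with 88.9% and 46.2% positive against 25.8% and 27.3% in controls, and 54.1% against 17.4% on average after thinning to 5000 UMIs. In fibroblasts of the same libraries only 1.47% and 0.621% of MOF cKO cells and 1.54% and 2.19% of control cells had an Ivl UMI.

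At E16.5 Ivl was found in Lor-rich cells in controls, whereas the MOF cKO gates held Ivl cells but no Lor-rich cell. Of the E16.5 control suprabasal cells with at least 3 Ivl UMIs, 4 of 5 and 12 of 14 had at least 100 Lor UMIs as well. MOF cKO had 6 and 3 such cells, and none could do so, because no cell of those gates held more than 25 and 3 Lor UMIs. Lor in these Ivl cells was 186511 and 114693 CPM in controls and 172 and 25.6 CPM in MOF cKO. The control Ivl cells had few UMIs of Krt5 and Krt14 (medians of 5 and 2), and the MOF cKO Ivl cells had many (medians of 511 and 746). Sprr1b, which encodes a small proline-rich envelope protein, was 3869.9 and 2614 CPM in the control Ivl cells and 18836 and 8026 CPM in those of MOF cKO. Krt6a, a keratin of stressed and wounded epidermis, was at 0 in both control sets and at 17195 and 17944 CPM in MOF cKO. Both genes were also found in MOF cKO suprabasal cells without Ivl. The 1 such cell of MOF cKO 1 had 19441 CPM of Krt6a and 10062 CPM of Sprr1b. The 7 such cells of MOF cKO 2 had 4999 and 3454 CPM, lower than its Ivl cells.

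MOF cKO 5 at E15.5 held Ivl cells with and without at least 100 Lor UMIs. Its suprabasal gate had 42 cells with at least 3 Ivl UMIs, against 7 and 1 in controls and 0 in MOF cKO 6, and only 6 of the 42 had at least 100 Lor UMIs. In the controls 6 of 7 and 1 of 1 did. Ivl in that gate was 97.6 CPM, against 16.2 and 2.18 CPM in controls and 3.04 CPM in MOF cKO 6, so the MOF cKO values lay on both sides of control 2. In the 42 cells Krt6a was 2585 CPM and Sprr1b 1892 CPM, against 49.3 and 119.7 CPM in the 120 cells of that gate without Ivl. In the 7 Ivl cells of control 2 Krt6a was 0 and Sprr1b 328 CPM. The 42 cells had a median of 37 UMIs of Krt5 and Krt14, close to the 39.5 of their gate. The E16.5 MOF cKO Ivl cells had medians of 511 and 746.

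Ivl was also found in basal cells of E16.5 MOF cKO skin, a gate that the choice of members did not use by itself, although its cells are among all kept cells. The level was 1.03 and 1.82 CPM in controls, from 2 and 12 UMIs, and 88.2 and 80.7 CPM in MOF cKO, from 34 and 41 UMIs. The exact Poisson intervals were 0.124 to 3.7 and 0.941 to 3.18 CPM in controls and 61.1 to 123 and 57.9 to 109 CPM in MOF cKO. They cover counting error only and leave out the spread between cells and between embryos, so nothing is read from the distance between them. Ivl passed the filter on low counts only through the MOF cKO libraries, so no fitted change or p-value is given for it. Fibroblasts of these libraries had 1.36 and 2.3 CPM in controls and 1.1 and 0.511 CPM in MOF cKO, so the control basal level was close to that in fibroblasts and the MOF cKO basal level was far above it. The signal came from few cells. Of the 21 and 26 MOF cKO basal cells 3 and 2 had at least 3 Ivl UMIs, 1 of them with 31 of the 41 UMIs in MOF cKO 2, and none of the 156 and 450 control basal cells did, which is 0% with upper Wilson limits of 2.4% and 0.846%. These 3 and 2 cells had 12659 and 12082 CPM of Krt6a and 12025 and 3436 CPM of Sprr1b, against 1397 and 659 CPM and 541 and 109 CPM in the MOF cKO basal cells without Ivl. Their median mitochondrial share was 0.196% and 1.43%, against 3.44% and 3.09%. Whether they were basal cells or suprabasal cells low in Krt1 and Krt10 was not tested. The median depth of basal cells was 11691 and 12443 UMIs in controls and 20351 and 20564 UMIs in MOF cKO. The 6 periderm markers summed to 1552 and 1131 CPM in controls and 7778 and 4598 CPM in MOF cKO in this gate, with Krt8 at 0 in both MOF cKO libraries. Krt6a (4223 and 2197 CPM) and Krt17 (3545 and 2382 CPM) made up nearly all of the MOF cKO sums. The 6 basal markers summed to 24386 and 19379 CPM in controls and 10257 and 13301 CPM in MOF cKO, and the 7 suprabasal markers to 2568 and 3592 CPM and 6387 and 3716 CPM. The 5 immune markers summed to 12.3 and 19.4 CPM in controls and 114 and 769 CPM in MOF cKO, with Ptprc and Csf1r at 0 in MOF cKO 1 and no marker at 0 in MOF cKO 2. Doublets were not called, and the part of these markers in the Ivl level was not tested. At E15.5 basal Ivl was 0.118 and 0.0788 CPM in controls and 2.2 and 0.165 CPM in MOF cKO, too low to be tested.

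Lor in basal cells was close to its level in fibroblasts. The E16.5 values were 265 and 121 CPM in control basal cells and 264 and 118 CPM in control fibroblasts, and 13 and 15.7 CPM against 23.3 and 9.63 CPM in MOF cKO. The basal log2 fold change of -3.18 ± 0.45 (SE; edgeR adjusted p = 0.00553; 3% of 8126 genes called lower and 7.14% higher) therefore describes a level that fibroblasts shared. Basal cells are also among all kept cells, in which Lor was chosen, so nothing is read from that p-value. In E15.5 basal cells, 0 of 2 members tested were called, beside 0% of 14350 genes in edgeR. There 1272 genes reached an unadjusted p under 0.05, and DESeq2 called 117.

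At E17.5, with 1 library per genotype and no test, the members had few UMIs in the suprabasal gates of both. Lor was 15.8 CPM in the control and 12.9 CPM in QPC cKO, from 79 and 27 UMIs, orders of magnitude below the E16.5 controls. Its log2 ratio on the scale of CPM + 1 was -0.27, and the exact counting interval of the ratio ran from -0.98 to 0.36. Flg had 20 UMIs in the control and 1 in QPC cKO, and Hrnr had 0 in the control and 8 in QPC cKO. Of these, the log2 ratio of Flg on the same scale was -1.76 (counting interval of the ratio -8.44 to -0.42), and that of Hrnr was 2.27 with a lower counting limit of 2.03 and no upper one. Both intervals leave out the spread between embryos, which 1 library per genotype does not show. Ivl had 6 and 3 UMIs, Lce1m and Cdsn had 2 each in the control and none in QPC cKO, and Flg2 and Rptn had none. No member reached 100 UMIs in either library, the minimum for which 1.02% of 5911 genes were at least 2-fold lower and 0.355% at least 2-fold higher. No cell of either library had 100 member UMIs, in 5353 and 6118 kept cells, and no barcode left out by the limits did. Whether these libraries held cells of the granular layer was not tested. The suprabasal gates of 190 and 72 cells were rich in Krt5 and Krt14 (medians of 451 and 481 UMIs), and 49.6% and 53.3% of the Lor UMIs sat in barcodes above the limit of 6000 genes.

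The wider family was then examined in suprabasal cells. Of 44 other envelope genes 21 were tested at E16.5, of which 3 were called lower and 2 higher, beside 0.68% and 3.35% of all genes tested, with a median log2 fold change of -1.55 against -0.06 for all genes tested. The median was the same with the 5 genes without a UMI in MOF cKO placed at their bounds. Of the 21 genes, 8 passed the filter on low counts through the controls only and 1 through MOF cKO only, among them 2 of those called lower and 1 of those called higher. Such genes had to differ, so nothing is read from their calls or from the median, and their values are given without a p-value. The 5 with the highest level in controls were Crct1, Lce1a1, Lce1a2, Lce1b and S100a11. Crct1, a cysteine-rich gene of the complex, was 5978 and 929.7 CPM in controls and 57.1 and 103 CPM in MOF cKO (log2 fold change -4.89 ± 0.92, edgeR adjusted p = 0.0364). It was not called without MOF cKO 1 (edgeR adjusted p = 0.232), without MOF cKO 2 (0.123), with the gate at 50 UMIs (0.0966) or with the replicate number as a block (0.0637), and without control 1 its log2 fold change was -3.17. Without suprabasal cells with at least 20 collagen UMIs the log2 fold change of Crct1 was -2.83. Lce1a1, a relative of Lce1m, was 5311 and 196 CPM in controls and 5.19 and 0 CPM in MOF cKO, the former from 1 UMI. Lce1a2 had 5277 and 119 CPM in controls and no UMI in MOF cKO, at least 436-fold lower than the control mean and at least 19.2-fold lower than control 2. Lce1b had 2935 and 56.9 CPM against 0 and 3.43 CPM. The third gene called lower was Lce6a, with 607 and 107 CPM against 0 and 3.43 CPM. Over the pooled UMIs of each group the ratio of control to MOF cKO was 1027-fold for Lce1a1 (exact counting interval 184 to 40559), 552-fold for Lce1b (98.9 to 21805) and 143-fold for Lce6a (25.5 to 5654), each against 1 UMI. These genes passed the filter through the controls only. The intervals leave out the spread between cells and between embryos, and nothing is read from their distance from equal levels. Lce1 genes are near-identical copies, so reads may be split between them, and control 1 exceeded control 2 by an order of magnitude in each Lce1 gene named here.

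The 2 envelope genes called higher were Sprr1a and Sprr1b, small proline-rich envelope proteins, and they are named here after their values were seen. Sprr1a was 2.01 and 4.84 CPM in controls and 10767 and 2898 CPM in MOF cKO, and it passed the filter through MOF cKO only. Sprr1b was 400.0 and 539 CPM against 17308 and 5166 CPM (log2 fold change 5.14 ± 0.85, edgeR adjusted p = 0.026). It was called under 12 of 13 alternatives, and without MOF cKO 1 it was at 3.86 and not called (edgeR adjusted p = 0.0683). S100a11, a calcium-binding envelope protein, was 951 and 1973 CPM in controls and 4506 and 3488 CPM in MOF cKO and was not called (edgeR adjusted p = 0.105). In all kept cells 26 of the 44 genes were tested, of which 5 were called lower and 2 higher, beside 6% and 5.88% of all genes. Of those called, Lce6a passed the filter through the controls only.

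Among enzymes that crosslink the envelope or process profilaggrin, 10 of 14 were tested at E16.5, with 1 called higher, none lower, beside 3.35% called higher and 0.68% called lower of the 4266 genes tested, and a median log2 fold change of 0.97 against -0.06 for all genes. The gene called was Tgm1, the transglutaminase of the envelope, with 68.3 and 65.4 CPM in controls and 280.3 and 168 CPM in MOF cKO (2.26 ± 0.45, edgeR adjusted p = 0.0416). It was not called without MOF cKO 1 (edgeR adjusted p = 0.155), without control 2 (0.0534), with the replicate block (0.083) or with the gate at 20 per 10000 UMIs (0.0579). Of the 9 not called, Tgm3 was at 2.38, Klk7 at 1.91, St14 at 1.64, Spink5 at 1.26, Ctsd at 0.68, Blmh at 0.63, Casp14 at 0.18 and Klk5 at 0.09, and Asprv1, the protease of profilaggrin, at -0.98, the only negative value of the tested genes. St14 passed the filter through MOF cKO only and so had to differ. Nothing is read from its value or from the median of the list, which includes it. Tgm5, Prss8, Padi1 and Padi3 were too low to test. Of 8 early suprabasal genes 7 were tested and 1 was called higher, beside the same 3.35% of all genes, with a median of 0.38 against -0.06. Serpinb3a, a protease inhibitor, was 2.01 and 3.63 CPM in controls and 182 and 391 CPM in MOF cKO. It was the gene called, and since it passed the filter through MOF cKO only, nothing is read from that call or from the median of the list. The others were Sbsn at 0.74, Lgals7 at 0.72, Krtdap at 0.38, Dmkn at 0.23, Dsg1a at -0.37 and Calml3 at -1.93, and Dsc1 was not tested.

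Of 15 transcription factors and cofactors of epidermal differentiation 14 were tested at E16.5 and 0 were called in edgeR, a share that cannot be told from the 3.35% called higher and 0.68% called lower of all 4266 genes at this number of genes, with a median log2 fold change of 0.48. The values of 12 of them ran from -0.69 for Gata3 and -0.21 for Cebpb, through -0.07 for Zfp750, 0.01 for Ovol1, 0.13 for Trp63, 0.26 for Grhl3, 0.47 for Cebpa and 0.49 for Grhl1, to 0.77 for Hopx, 0.86 for Klf4, 1.43 for Ppard and 1.46 for Maf. Prdm1 was too low to test. Klf4, the barrier factor, was 309.6 and 184 CPM in controls and 332 and 291 CPM in MOF cKO, with overlap between the groups. At E15.5 none of the genes tested in these 4 lists (19, 10, 8 and 14 of them) were called in edgeR, beside 0% of 10819 genes, and their medians were 0.44, 0.77, 0.35 and 0.01 in the order given above, against -0.01 for all genes. Ovol1 had the lowest value among the regulators there, with 104 and 127 CPM in controls and 35.6 and 54.6 CPM in MOF cKO (-1.29 ± 0.19, edgeR adjusted p = 0.372). At E17.5, 10, 6, 5 and 14 genes of these lists had at least 100 UMIs in either library. Of them 1 was at least 2-fold higher and 0 lower, beside 0.355% and 1.02% of 5911 genes. It was Sprr1b, at 3.61 CPM in the control and 57 CPM in QPC cKO, from 18 and 119 UMIs. Sprr1b reached 100 UMIs through QPC cKO only and so had to differ, and nothing is read from its ratio.

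**Figure D3:**
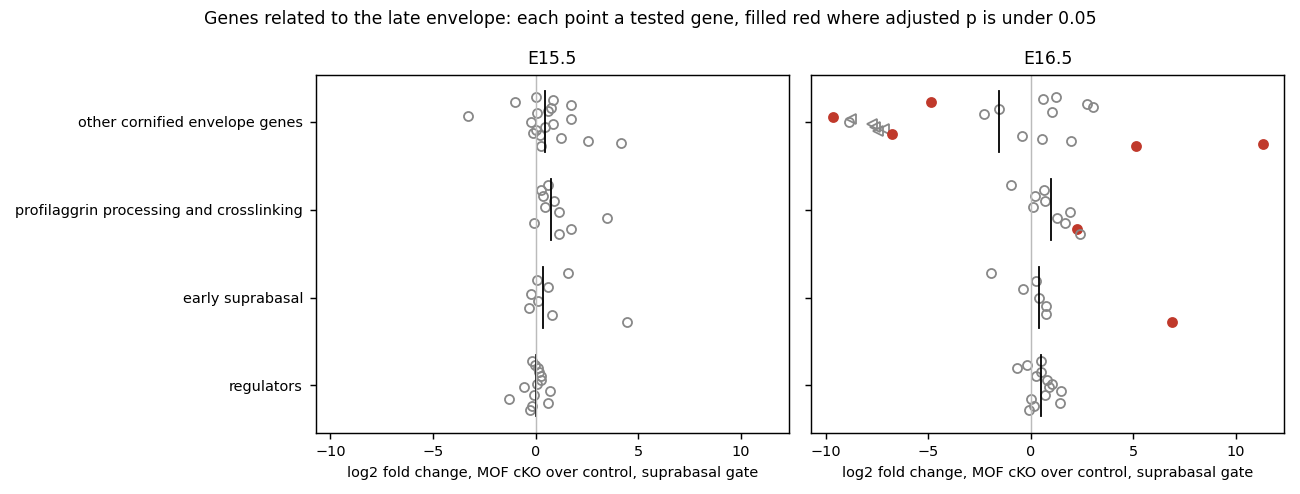
Log2 fold change of MOF cKO over control in suprabasal cells for each tested gene of the 4 related lists at E15.5 and E16.5; red filled points passed an adjusted p of 0.05, left-pointing triangles mark genes without a UMI in MOF cKO at the bound of their fold, and the black line is the list's median. No point is red at E15.5, and at E16.5 the other envelope genes spread to both sides, with Lce and Crct1 on the left and Sprr1a and Sprr1b on the right.

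Within control suprabasal cells, the genes most like the members were found by the mean over the 5 control libraries of the correlation across cells with the summed members, among 7653 genes. Cysrt1 (mean r = 0.75), Ggct (0.73), Glrx (0.72), Fam25c (0.71), Krt77 (0.70), Calml3 (0.69), Clic3 (0.69), Il1f5 (0.66), Ly6g6c (0.65) and Cnn3 (0.64) came first. The cells of a library share its depth and free RNA, and these values are a description. The likeness was weaker at E17.5, where Cysrt1 had r = 0.15 against 0.78 to 0.97 in the other controls. Lor and Hrnr had r = 0.98 and 0.93 across 147 and 361 cells at E15.5 and 0.93 and 0.95 across 31 and 66 cells at E16.5. Ivl and Lor had r = 0.79 and 0.59 at E15.5 and 0.71 and 0.88 at E16.5. Lce1m followed Lor loosely (0.51 and 0.36) and Ivl not at all (-0.13 and -0.03) at E16.5. The gene most like Hrnr was Cnfn, which encodes the envelope protein cornifelin, with a mean r of 0.96 over 4 libraries, followed by Lor with 0.95.

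The suprabasal gate itself was a small part of the skin cells. Its share of kept cells was 2.86 ± 1.56% in controls and 1.92 ± 0.108% in MOF cKO at E15.5 (SD, n = 2 each; exact permutation p = 1). The E16.5 shares were 2.71 ± 0.0156% and 1.11 ± 0.214% (SD, n = 2 each), a difference of -1.6 points with both MOF cKO values below both controls (exact two-sided permutation p = 0.333, the smallest that 2 against 2 can give). Across both stages the shares differed by -1.27 points (exact permutation p = 0.167, 36 arrangements).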

How the data were processed

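Single-cell suspensions of total back skin were profiled with 10x 3′ kits. The deposited values are UMI counts per gene and barcode without normalization, made by the authors with Cell Ranger on mm10; the submitters' processing notes name versions 1.3.1 and 6.1.2 for the E16.5 and E17.5 libraries and 6.1.2 for E15.5. Cells with over 1000 and under 6000 genes and under 10% mitochondrial UMIs were kept, the limits in the study's methods. Doublets were not called. Rows that share a symbol were summed; of several Flg rows at E16.5 only 1 held UMIs. UMIs were summed per library and gate and tested with the edgeR 4.0.16 quasi-likelihood test (filterByExpr, TMM; R 4.3.3), adjusted by the Benjamini-Hochberg method over all genes; DESeq2 1.42.0, other gates and left-out libraries were alternatives. The SE of an edgeR log2 fold change is the absolute value of that change divided by the square root of its F statistic. It is not a fitted standard error. The test scripts were checked on simulated counts with the same fixed dispersion for all genes. That check says nothing about error rates at the spread between these libraries. The study describes the replicates as pairs of control and MOF cKO embryos at E15.5 and as pairs of samples at E16.5. Genes of the related lists that are not named in the text are not reported here individually. E17.5 ratios used a pseudocount of 1 CPM. The members, the related lists and the rule for named genes (all members, genes of 3 short lists, the 5 highest other envelope genes, and the genes most like the members) were chosen with earlier results of these data known. UMIs are molecules, and intervals cover counting error only.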

Additional observations from a re-analysis of the deposited data

Results flagged for a closer look

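At E16.5, barcodes with at most 1000 detected genes, which are outside the comparisons above, held a larger part of the Lor UMIs in MOF cKO than in controls. The part was 61.8% of all Lor UMIs in MOF cKO 1 and 80.7% in MOF cKO 2, against 8.13% and 7.54% in controls. A single barcode held 317 of these UMIs in MOF cKO 1 and a single barcode held 734 in MOF cKO 2. In number these left-out barcodes held more Lor UMIs in controls, 3119 and 2344 against 383 and 745 in MOF cKO. Single control barcodes held up to 1472 and 761. The MOF cKO effect on Lor in suprabasal cells differed between the stages by -8.54 on the log2 scale (E16.5 minus E15.5), a contrast for which Lor was in part chosen and in which chemistry and gene list changed with the stage.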

How the results depend on the processing

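Of 360 pairs of a result and an alternative setting, 278 stayed on their side of the threshold, within 1.5 times the reported count or, for values without a test, within their error. These include Hrnr in suprabasal cells at E15.5, which moved from 0.65 to -0.06 without control 3. Related genes lost their call in 15 of the others. Among the headline results, which include the counts of calls, 75 pairs stayed, 49 moved and 1 reversed. The remaining 203 pairs that stayed belong to other results. Calls in suprabasal cells moved from 0 at E15.5 to 525 with no filter on low counts and to 49 with DESeq2, and from 172 at E16.5 to 305 with library sizes alone, 636 with no filter, and 110 with the gate at 50 UMIs and also with the gate at 20 per 10000 UMIs. Calls in basal cells moved from 0 at E15.5 to 2 with no filter and 117 with DESeq2, and from 824 at E16.5 to 1631 with library sizes alone, 1888 with no filter and 486 at a mitochondrial limit of 5%. In all kept cells they moved from 816 at E15.5 to 1945 with no filter, 2858 with DESeq2, 1247 at a limit of 5% and 2 with no upper limit on genes, and from 1671 at E16.5 to 2572 with no filter. The 3 interaction calls became 6 with library sizes alone, 309 with no filter, 121 with DESeq2, 1 at a limit of 5%, and 0 with no upper limit on genes or with the gate at 20 per 10000 UMIs. Leaving out 1 library gave 0 to 1749 calls in suprabasal cells at E15.5 and 30 to 247 at E16.5, 0 to 7372 and 262 to 990 in basal cells, 0 to 2548 and 1 to 1690 in all kept cells, and 0 to 6 for the interaction. The highest counts at E15.5 came without MOF cKO 6, the library described as mosaic. The suprabasal share at E15.5 ranged from -2.04 to 0.172 points and reversed without control 3. At E17.5 the log2 ratio of Lor moved to -1.32 with the gate at 50 UMIs, that of Hrnr to 0.47 and 5.30 with a pseudocount of 10 and 0.1 CPM and to 1.51 with no upper limit on genes, and that of Flg to -0.42 and -2.83 with a pseudocount of 10 and 0.1 CPM. E16.5 libraries of both groups share the numbers 1 and 2, but same-numbered libraries did not deviate together (r = -0.038 in suprabasal, -0.031 in basal and -0.058 in all kept cells), and with the replicate block the E16.5 calls were 92, 1288 and 980. The settings without an upper limit on genes, and those for Ivl and Lor in basal cells and for the related genes, were chosen after seeing the data. The causes of these moves were not tested, and the 22 suprabasal cells of E16.5 MOF cKO limit every value drawn from them.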
